A study of Mus musculus with 6 samples.

Results

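The loci of 9 genes that encode chromatin remodelling and histone acetylation enzymes were examined in sorted mouse haematopoietic stem cells (HSCs). The assay was ATAC-seq, in which a transposase cuts and tags accessible DNA. The genes were Smarca4, Smarca2, Arid1a, Chd4, Ep300, Crebbp, Hdac1, Hdac2 and Hdac3. Open regions were obtained by merging the peaks of all 6 libraries wherever they shared at least 1 bp, and a region was kept for a gene if it lay in the gene's RefSeq span or within 50 kb of it. This gave 110 of 82993 regions. The gene list was chosen by subject and with calls of these libraries already known, among them regions inside Smarca4 and Chd4 that were called after tunicamycin only. The calls and ranks of the 2 groups are therefore given as descriptions, with no test. The farthest region kept lay 48.8 kb from Chd4, and the nearest region not kept lay 51.8 kb from Crebbp.

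The HSCs were sorted as CD48-negative, CD150-positive cells among lineage-negative, Sca-1-positive, c-Kit-positive marrow, and about 5000 cells made up a library. Mice of both groups were wild-type C57BL/6J. Those of 3 libraries had received tunicamycin at 2 mg per kg into the peritoneum (tunicamycin 1, 2 and 3), and those of the other 3 had received DMSO (DMSO 1, 2 and 3). Tunicamycin inhibits N-linked glycosylation and causes stress of the endoplasmic reticulum. The sources used here do not state the age of the mice, the time from injection to sorting, or whether libraries came from separate animals. The number of peaks per library on chromosomes 1 to 19, X and Y ran from 44952 to 56865 after tunicamycin and from 28501 (DMSO 3) to 62478 (DMSO 1) after DMSO. Read depth is unknown, so a region without a call is not shown to be closed. A lower signal also cannot be told apart from fewer cells with an open region. As a check of the labelled cell type, a region called in all 6 libraries lay in or within 1 kb of the HSC markers Hlf, Mecom, Procr and Kit, but not of Slamf1, Ly6a or Fgd5. Among markers of other cells, such a region lay at 5 of 5 for megakaryocyte, 2 of 5 for erythroid, 1 of 8 for neutrophil and monocyte, 1 of 7 for lymphoid, and 2 of 5 for stroma and endothelium markers. Of all protein-coding genes 54.4% had such a region, so these calls do not by themselves establish the cell type.

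Nucleosomes restrict access to DNA, and the products of these genes move or modify them. Smarca4 (BRG1) and Smarca2 (BRM) are alternative ATPases of the BAF (SWI/SNF) complex, which slides and evicts nucleosomes, and Arid1a is a DNA-binding subunit of that complex. Chd4 (Mi-2 beta) is the remodelling ATPase of the NuRD complex, which also holds the deacetylases Hdac1 and Hdac2. Ep300 (p300) and Crebbp (CBP) are paralogous acetyltransferases that acetylate histones at enhancers and promoters, and Hdac3 is the deacetylase of the NCoR and SMRT corepressor complexes. In mouse HSCs, Crebbp and Chd4 are known from knockouts to be needed for stem cell maintenance.

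RefSeq promoter windows of GRCm38.p6, the assembly that mm10 denotes, matched 7 of the 9 genes, the others being Hdac1 and Hdac3. The windows run from 250 bases before a listed start to 50 after it. The stretches below are those parts of 4 windows that precede the annotated gene span, 5′ to 3′ on the strand of the gene. They are shown because the open region over them ranked high at Smarca4, lower at Smarca2 and Ep300, and lowest of the 9 genes at Chd4, by the mean percentile over the 6 libraries (single libraries can differ in this order). Capitals mark the SP/KLF box GGGCGG, the NRF1 core GCGCATGC and the ETS core CCGGAAG, each on either strand.
Smarca4 (chr9:21615919-21616105, plus strand): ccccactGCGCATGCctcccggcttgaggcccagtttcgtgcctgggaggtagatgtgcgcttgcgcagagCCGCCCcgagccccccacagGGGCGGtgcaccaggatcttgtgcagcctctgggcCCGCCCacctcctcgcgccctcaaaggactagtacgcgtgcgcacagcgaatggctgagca
Smarca2 (chr19:26604910-26605072, plus strand): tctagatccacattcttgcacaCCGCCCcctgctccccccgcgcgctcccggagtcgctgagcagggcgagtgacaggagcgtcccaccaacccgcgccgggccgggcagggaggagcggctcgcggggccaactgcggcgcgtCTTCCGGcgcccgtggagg
Chd4 (chr6:125095731-125095979, plus strand): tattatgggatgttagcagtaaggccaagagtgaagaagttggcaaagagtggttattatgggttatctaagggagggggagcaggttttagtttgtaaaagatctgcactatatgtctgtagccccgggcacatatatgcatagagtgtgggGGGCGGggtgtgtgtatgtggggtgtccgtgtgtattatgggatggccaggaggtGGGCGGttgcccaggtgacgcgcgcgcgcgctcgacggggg
Ep300 (chr15:81585964-81586208, plus strand): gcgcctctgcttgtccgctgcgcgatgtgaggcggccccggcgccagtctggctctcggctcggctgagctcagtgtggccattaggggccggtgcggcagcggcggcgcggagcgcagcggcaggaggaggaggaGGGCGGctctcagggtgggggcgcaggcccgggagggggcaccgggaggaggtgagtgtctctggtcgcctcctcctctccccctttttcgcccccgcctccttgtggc

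All 9 member windows, from 7 genes, held at least 1 SP/KLF box, which 46.2% of all 21263 promoter windows of protein-coding genes hold. The windows were rich in G and C, with 57.0 to 82.0% G or C and 17 to 49 CpG dinucleotides, where the medians of all windows were 56.3% and 13. The NRF1 core was found at Smarca4 only, with 2 matches in its full window (3.52% of all windows hold a match), and the ETS core at Smarca2 only (11.56%). The CCAAT box was found in both windows of Chd4, which overlap each other, and in no other member window (38.19% of all windows). Of the motifs tied to endoplasmic reticulum or integrated stress, the UPRE core TGACGTGG (0.71% of all windows), the CARE TGATGCAA (0.87%) and the endoplasmic reticulum stress element ERSE (0.14%) were in none of the member windows. Neither were the CRE TGACGTCA (2.23%) and the YY1 core AAGATGGC (3.05%). The AP-1 site (TGACTCA or TGAGTCA) was found at Smarca2 (4.66%), and the RUNX factor core TGTGGT at Hdac2 (14.97%). The core bound by GATA family factors, AGATAA, was found at Chd4 (9.65%). The E2F site (TTTCCCGC with its variant TTTGGCGC) was found at Arid1a (2.02%). Motifs were searched on both strands. A match is a match of letters and does not show binding.

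The start of every one of the 9 genes lay in or beside chromatin called open in all 6 libraries, with and without tunicamycin. Of 21887 protein-coding genes, 54.4% had a region of 6 calls at most 1 kb from the gene or within it, a looser measure than a region at the start. The share of all gene starts with such a region was not computed. The strength of a peak is given here as the percentile of its fold enrichment, a value of the authors' peak caller, among all peaks of the same library. Since the lists differ in length, a shift in percentile between libraries does not show a change in accessibility.

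Among the ATPase genes, the start region of Smarca4 (chromosome 9, 21615587 to 21616795, mm10) stood at percentiles 94.0, 89.4 and 88.4 in tunicamycin 1, 2 and 3, against 92.7, 78.4 and 91.9 in DMSO 1, 2 and 3. It was among the strongest of all members in both groups, and the groups overlapped. Its highest point fell at −84 to −67 bp from the listed start in all 6 libraries, within the last bases of the stretch shown above. The start region of Smarca2 (chromosome 19, 26604573 to 26605309) stood at 72.8, 80.8 and 79.8 in the tunicamycin libraries and at 69.2, 80.4 and 79.2 in the DMSO libraries. Again the groups overlapped, with the lowest value of each in replicate 1.

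By its mean over the 6 libraries, Chd4 had the weakest start region of those called in all of them (chromosome 6, 125095758 to 125096301). Its percentiles were 30.8, 43.5 and 50.8 in the tunicamycin libraries and 36.1, 7.2 and 19.4 in the DMSO libraries, with means of 41.7 ± 10.1 and 20.9 ± 14.5 (SD, n = 3 each). The tunicamycin libraries were higher on average, but DMSO 1 lay above tunicamycin 1. That it was the lowest rests on the DMSO libraries: by the tunicamycin mean the inner Arid1a start was weaker, at 37.0 ± 4.8, with Chd4 next. With every list limited to the 28501 peaks of highest −log10 q, the values became 6.2, 7.1 and 18.2 in the tunicamycin libraries and 3.8, 0.9 and 19.4 in the DMSO libraries, where DMSO 3 was the highest of all. Averaged over the 6 libraries, the Chd4 start region ranked at percentile 5.7 among the 20810 regions called in all 6, and that of Smarca4 at 81.1.

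Arid1a has 2 listed starts, each with a region called in all 6 libraries. The upstream one (chromosome 4, 133756638 to 133757773) stood at 48.1, 49.8 and 45.7 in the tunicamycin libraries and at 51.9, 56.5 and 50.8 in the DMSO libraries. All 3 tunicamycin values lay below all 3 DMSO values, by a narrow margin, and in lists of equal length the groups overlapped. The highest point of this region lay at −720 bp from the upstream start in DMSO 3 and at −160 to −37 bp in the other libraries. The other (133754026 to 133754585) stood at 39.3, 40.2 and 31.5 after tunicamycin and at 44.6, 43.5 and 35.2 after DMSO, with overlap. Its highest point lay at −414 to −393 bp from the inner start in all 6 libraries.

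Among regions called in all 6 libraries, the start regions of the acetyltransferase genes ranked in the middle, at percentiles 53.2 (Ep300) and 52.5 (Crebbp). At Ep300 (chromosome 15, 81584911 to 81586647) the percentiles within the lists were 72.8, 81.5 and 75.9 in the tunicamycin libraries and 71.6, 62.0 and 81.9 in the DMSO libraries. The groups overlapped, and the DMSO values held both the lowest and the highest. The region was 1737 bp wide and its highest point lay at −1075 to −944 bp from the listed start, outside the promoter stretch shown above. At Crebbp the region that covers the 5′ end of the annotated gene (chromosome 16, 4213865 to 4214564) stood at 72.4, 58.2 and 79.8 after tunicamycin and at 71.1, 73.8 and 87.6 after DMSO, with overlap. The only start listed for Crebbp lay downstream of it, in a weaker region (4212933 to 4213458) that tunicamycin 2, tunicamycin 3 and DMSO 1 called, at percentiles 21.6, 6.6 and 19.7.

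Of the deacetylase genes, Hdac1 had the strongest start region of the 9 genes (chromosome 4, 129542334 to 129543104). It stood at 90.4, 94.7 and 97.8 in the tunicamycin libraries and at 95.4, 92.9 and 97.3 in the DMSO libraries. Both groups covered nearly the same range, and the region ranked at percentile 91.8 among regions called in all 6 libraries. Hdac2 (chromosome 10, 36973913 to 36975374) stood at 66.1, 77.9 and 85.5 after tunicamycin and at 71.4, 67.6 and 67.6 after DMSO. Its tunicamycin values spread more widely and included the lowest and the 2 highest of all. At Hdac3 (chromosome 18, 37954693 to 37956567) the region also overlapped the neighbouring gene Rell2, was the widest of the start regions at 1875 bp, and held 2 peaks in every library. Its percentiles were 74.5, 78.9 and 78.2 in the tunicamycin libraries and 72.0, 72.4 and 64.7 in the DMSO libraries, so that all 3 tunicamycin values lay above all 3 DMSO values. In lists of equal length the groups overlapped. For Hdac1 and Hdac3 the region over an end of the gene span was taken as the start region. At Hdac3 the highest point lay at −1343, −24 and −30 bp from that end in tunicamycin 1, 2 and 3. In DMSO 1, 2 and 3 it lay at −1337, 9 and −1343 bp. The Hdac3 percentiles therefore do not come from the same peak in all libraries.

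**Figure D1:**
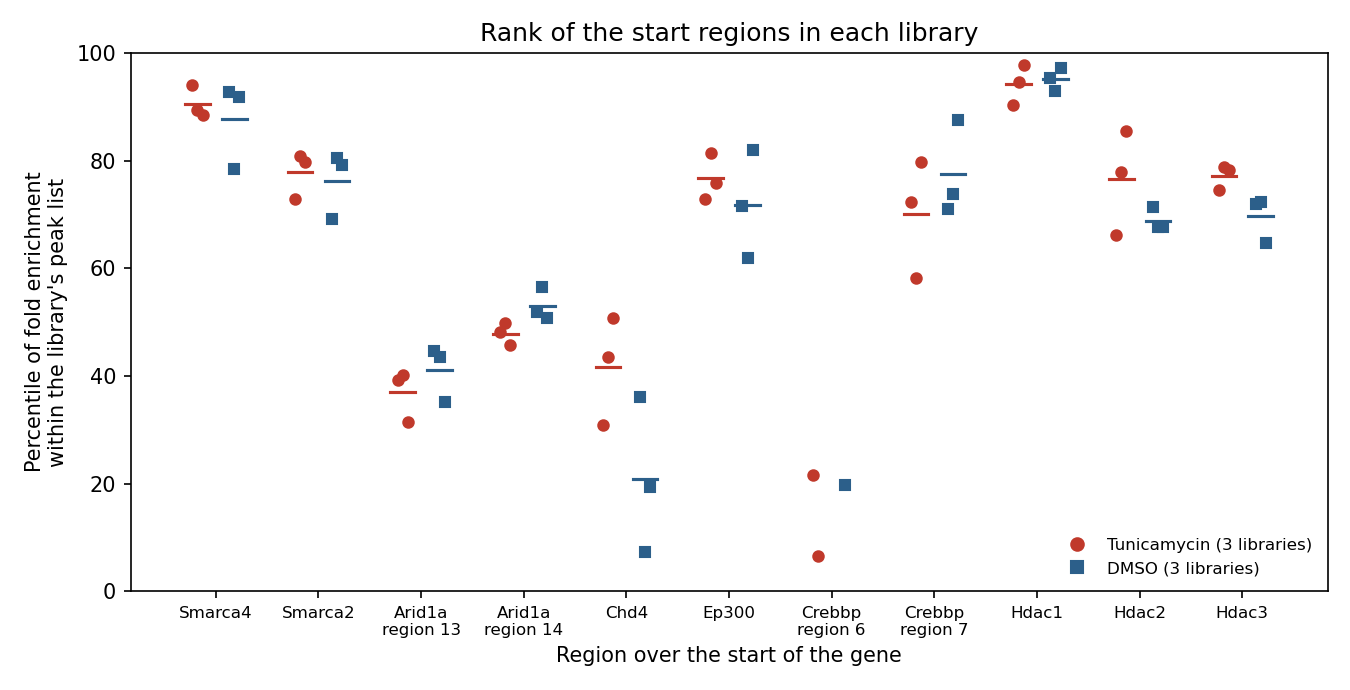
Percentile of fold enrichment (vertical axis, percent of the library's own peaks at or below the value) of the 11 regions over gene starts in 3 tunicamycin libraries (circles) and 3 DMSO libraries (squares), with horizontal lines at group means where all 6 libraries called the region. Hdac1 and Smarca4 stand highest, with means over the 6 libraries of 94.8 and 89.1, Chd4 lowest of the regions called in all 6 at 31.3, and region 6 of Crebbp was called in 3 libraries.

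Over all 48 member regions called in all 6 libraries, the ranks rarely separated the groups. In 2 of the 48, the Hdac3 start region and a region 14890 bp outside Hdac1, every tunicamycin percentile lay above every DMSO percentile, and in 1, the upstream Arid1a start, every one lay below. Among all 20810 regions called in all 6 libraries these patterns made up 7.42% and 1.58%, against 4.17% and 2.08% of the 48, so nothing in these counts sets the members apart. In lists of equal length the balance moved: 2 of 41 member regions lay above and 3 below (4.88% and 7.32%), and of all regions called in all 6, 4.37% and 3.91%. The region beside Hdac1, nearest to Fam229a (chromosome 4, 129500574 to 129501214), stood at 62.1, 66.4 and 63.7 in the tunicamycin libraries and at 46.8, 19.3 and 12.5 in the DMSO libraries. It was the only one of these 3 in which the groups also separated in lists of equal length. At the Hdac3 start the peak that was ranked differed between libraries.

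Inside the genes and away from their starts lay 29 regions. All 6 libraries called 6 of them (20.7%), against 25.1% of all regions, and these 6 lay in BAF genes. The 3 BAF genes held 20 such regions, and all 6 libraries called 6 of these, 2 to 5 libraries 8, and 1 library 6. Ep300 and Crebbp held 5, each called in 1 library. Chd4 held 4, of which none was called in all 6, and the 3 deacetylase genes held none. The deacetylase genes are also the shortest, with spans of 26.5, 27.6 and 18.0 kb for Hdac1, Hdac2 and Hdac3, against 173.2 kb for Smarca2 and 132.6 kb for Crebbp, and the part of gene length in these counts was not tested. With so few regions per gene, the gene groups are not compared further.

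By its mean over the 6 libraries, the strongest of the internal regions lay in Smarca2, centred 41170 bp after its listed start (chromosome 19, 26646016 to 26646643). Its percentiles were 94.7, 99.0 and 92.7 after tunicamycin and 99.6, 94.9 and 86.8 after DMSO, above the start region of the same gene in each library. A second, centred 142963 bp after the start (26747646 to 26748600), stood at 87.5, 90.5 and 86.6 after tunicamycin and at 93.2, 92.1 and 75.2 after DMSO. Another, just inside the gene (26606382 to 26607539), was wide at 1158 bp and weak in all libraries, at 16.4, 18.2 and 7.4 after tunicamycin and 12.5, 1.8 and 1.7 after DMSO.

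Arid1a held a pair of strong internal regions that outranked both of its starts. The region at chromosome 4, 133706836 to 133707359 stood at 85.5, 96.9 and 93.9 in the tunicamycin libraries and at 89.1, 92.6 and 97.1 in the DMSO libraries. In tunicamycin 3 and DMSO 3 it ranked above the strongest Smarca2 region. The region at 133729448 to 133730523 stood at 82.2, 89.3 and 90.8 after tunicamycin and at 93.3, 83.6 and 84.1 after DMSO. In both, the groups overlapped. Smarca4 had 1 internal region called in all libraries, 36236 bp after its start (chromosome 9, 21652124 to 21652686), at 77.4, 83.0 and 51.6 after tunicamycin and 76.8, 31.1 and 81.2 after DMSO. DMSO 2 was the lowest and the groups overlapped.

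Outside the genes, 2 regions called in all 6 libraries had a member as their nearest gene. One lay 5821 bp before the 5′ end of Smarca4 (21609849 to 21610285), at 70.9, 84.6 and 95.5 after tunicamycin and 95.4, 70.1 and 88.2 after DMSO. The other lay 43665 bp beyond the far end of Smarca2 (26821986 to 26822956), at 82.0, 84.9 and 64.9 after tunicamycin and 86.0, 87.6 and 63.0 after DMSO. Each group spanned nearly the same range in both regions.

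**Figure D2:**
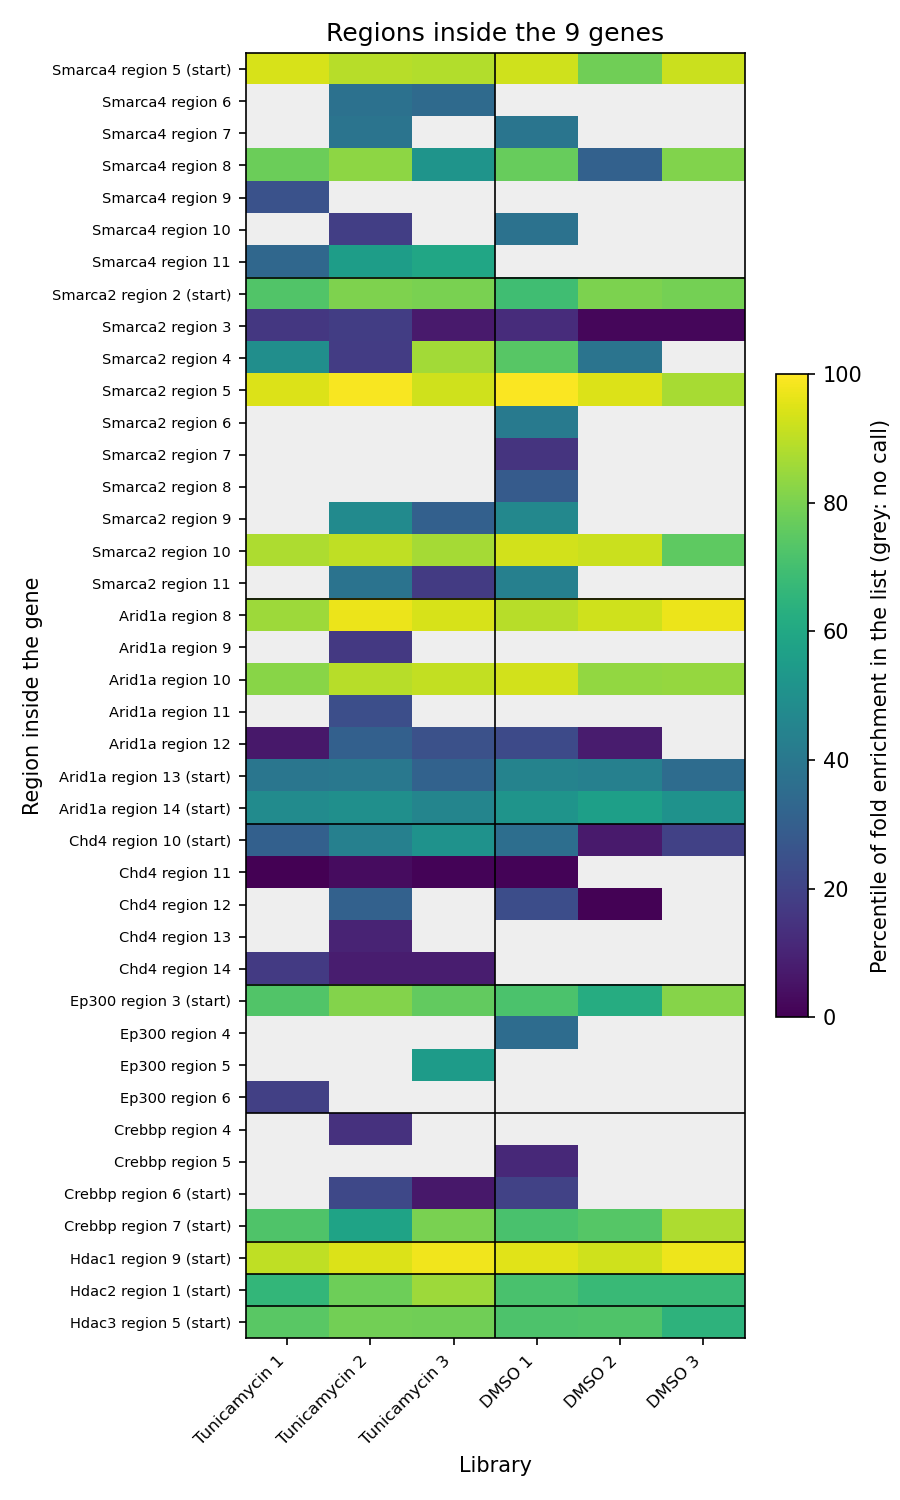
Each row is 1 of the 40 regions inside the 9 genes, numbered along the chromosome within each locus, and each column a library, with colour giving the percentile of fold enrichment within the list and grey meaning no call. The 16 rows called in all 6 libraries are the start regions other than Crebbp region 6 and 6 internal regions of Smarca4, Smarca2 and Arid1a, and the rows coloured in all 3 tunicamycin columns and grey in all 3 DMSO columns are Smarca4 region 11 and Chd4 region 14.

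Regions called in all 3 tunicamycin libraries and no DMSO library were found at 2 members, Smarca4 and Chd4. These 2 of 110 regions (1.8%) compare with 0.683% of all regions, and since these calls were known when the list was chosen, nothing is read from the difference. Among the 33404 regions called in all 3 tunicamycin libraries, 1.70% were called in no DMSO library. Of the 21887 protein-coding genes, 4.88% had such a region inside or within 50 kb. Both regions lay inside the gene, towards its far end. No member region was called in all 3 DMSO libraries and no tunicamycin library, a pattern of 0.0976% of all regions and found within 50 kb of 0.608% of genes.

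The Smarca4 region (chromosome 9, 21698727 to 21699219) was 493 bp wide and lay 5011 bp before the far end of the gene. Its fold enrichment was 4.69, 5.84 and 6.19 in tunicamycin 1, 2 and 3, at percentiles 33.3, 55.5 and 59.3 of those lists, with no peak in any DMSO list. The −log10 q deposited for these peaks was 6.92, 11.03 and 12.49. With peaks of a q-value of at most 1e-05 it was still called in 3 tunicamycin and 0 DMSO libraries, and in lists of equal length in 2 and 0.

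The Chd4 region (chromosome 6, 125129713 to 125130226) was weaker. It was 514 bp wide and lay 365 bp before the far end of Chd4 and 1657 bp from Nop2, a nucleolar RNA methyltransferase gene. Its fold enrichment was 4.01, 3.46 and 3.62 in the tunicamycin libraries, at percentiles 17.1, 8.1 and 7.9, again with no peak in any DMSO list. With peaks of a q-value of at most 1e-05, 2 tunicamycin libraries and no DMSO library called it, and in lists of equal length no library did. The next region towards Nop2 (125131259 to 125132196) was called in all 6, at 77.1, 77.7 and 70.0 after tunicamycin and 83.9, 74.3 and 89.3 after DMSO. In lists of equal length it stood at 63.8, 55.6 and 49.7 after tunicamycin and 64.7, 65.5 and 89.3 after DMSO. There every tunicamycin value lay below every DMSO value.

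**Figure D3:**
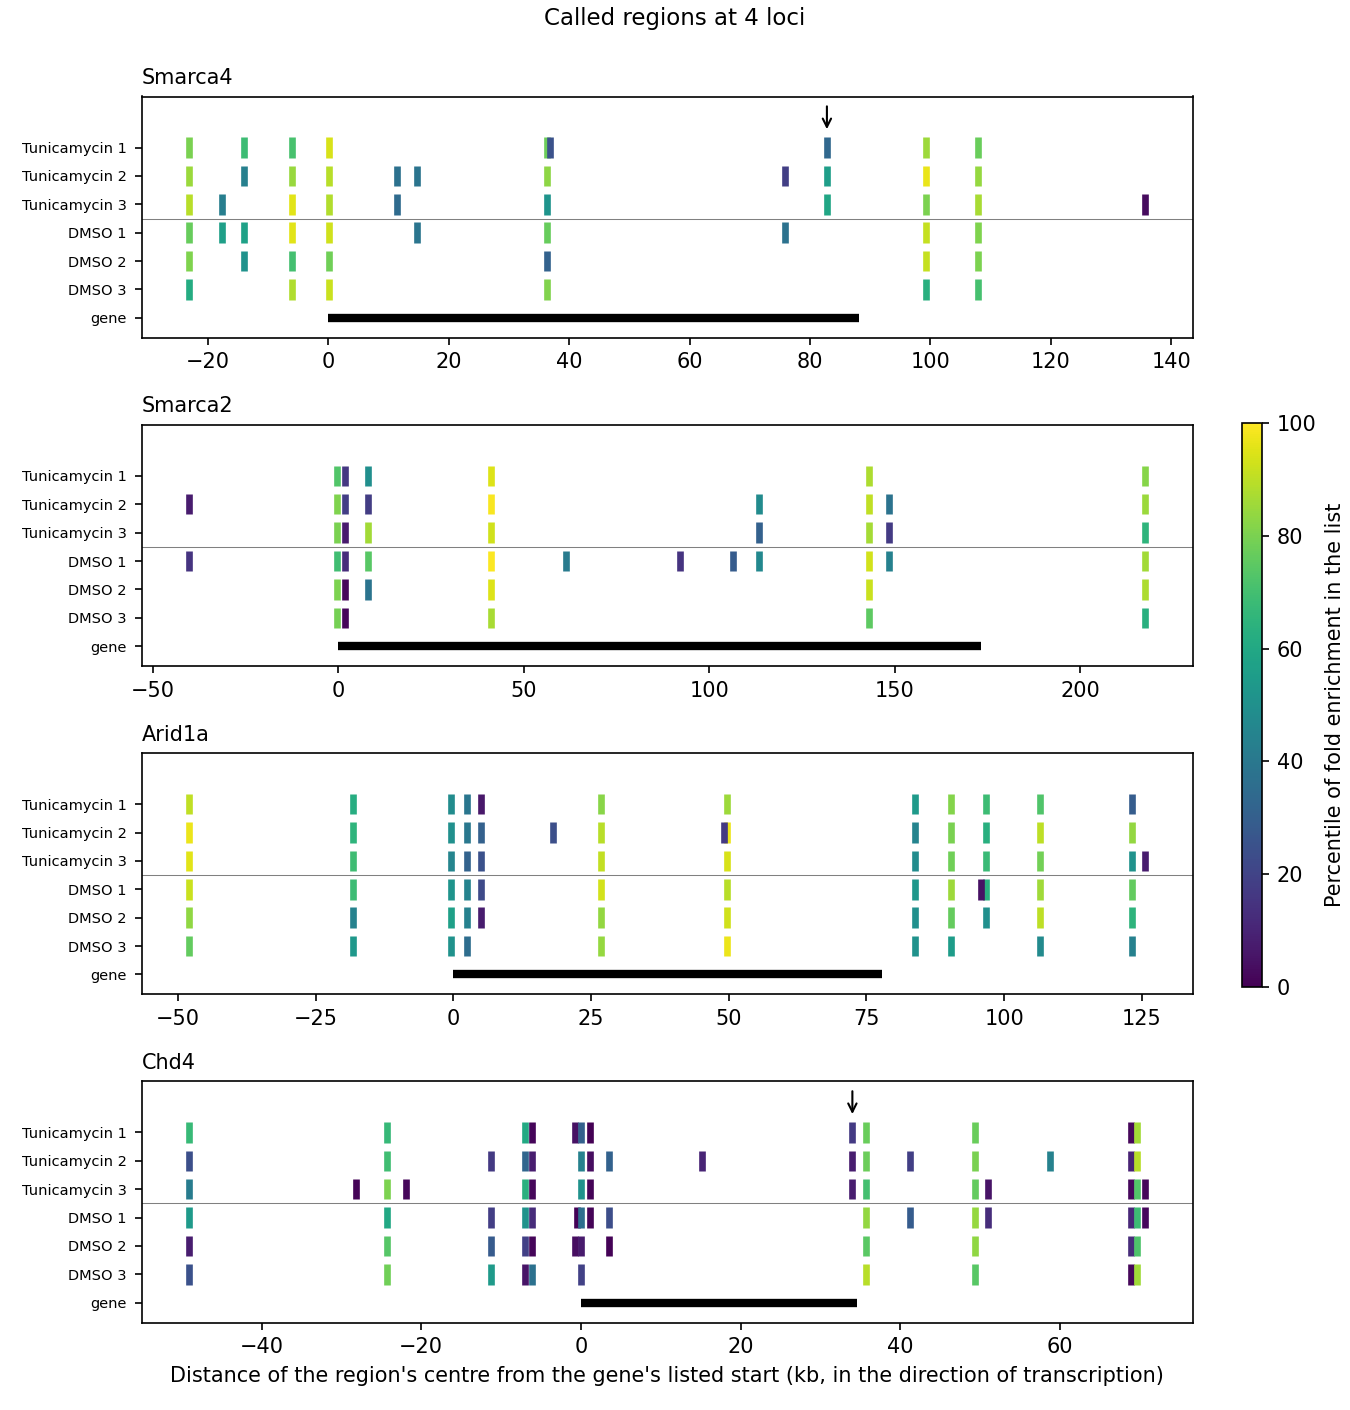
Called regions in and within 50 kb of Smarca4, Smarca2, Arid1a and Chd4, with the distance of each region's centre from the first start that RefSeq lists for the gene, in kb along its transcription, on the horizontal axis, 1 line per library and colour for the percentile of fold enrichment. The black bar is the gene span, and the arrows mark the regions called in 3 tunicamycin and 0 DMSO libraries, 82804 bp after the Smarca4 start and 33988 bp after the Chd4 start.

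How many member regions had this pattern depended on DMSO 1, the longest list. Another 4 regions had a peak in every tunicamycin list and, on the DMSO side, in DMSO 1 only (3.6% of the 110, against 4.39% of all regions). They lay inside Chd4 (chromosome 6, 125096904 to 125097272), 17032 bp outside Ep300, 12381 bp outside Crebbp in Trap1, and 1302 bp outside Hdac1 in Marcksl1. Their percentiles in DMSO 1 were 1.0 at Chd4, 35.4 at Ep300, 66.7 at Crebbp and 17.5 at Hdac1, and those in the tunicamycin libraries ran from 0.3 to 3.3, 10.0 to 42.3, 28.7 to 59.1 and 12.1 to 42.7 in that order. Without DMSO 1 the count of regions called in every tunicamycin and no DMSO library was therefore 6 (5.07% of all regions then had the pattern). A further 7 regions were missing from DMSO 3 alone, the shortest list (6.4%, against 8.27% of all regions). Nearest to the opposite pattern were a pair of regions, each 1 call short of it. One, 7943 bp outside Hdac1 and nearest to Marcksl1 (chromosome 4, 129507921 to 129508161), was called in no tunicamycin library and in DMSO 1 and 2, at percentiles 36.9 and 37.2. The other, at Lpar5 and 11146 bp outside Chd4 (chromosome 6, 125084528 to 125084834), was called in tunicamycin 2 at percentile 17.1 and in DMSO 1, 2 and 3 at 18.1, 28.3 and 54.1.

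Regions at the 9 loci were called more often than the whole set of regions, in libraries of both groups. That set is not limited to regions near genes, and no background of such regions was computed. The share of the 110 regions that was called was 62.7, 74.5 and 69.1% in tunicamycin 1, 2 and 3 and 80.0, 58.2 and 45.5% in DMSO 1, 2 and 3. The same libraries called 52.6, 67.2 and 55.7% and 73.6, 44.5 and 33.3% of all regions. Members thus stood 10.3 ± 3.05 percentage points above all regions after tunicamycin and 10.7 ± 3.82 after DMSO (SD, n = 3 each), a difference of −0.45 points that is smaller than either spread. The sign depended on how regions were counted: the difference was 3.38 with 50% of a region covered by peaks, 5.31 with regions inside the gene spans only and 4.48 with regions nearest to a member. It also depended on single libraries, and ran from −2.62 without DMSO 1 to 1.03 without tunicamycin 2. Regions called in all 6 libraries made up 43.6% of the members (48 of 110) and 25.1% of all regions, and regions called in 1 library made up 24.5% (27 of 110) and 32.4%. Of the 40 regions inside the member genes 40.0% were called in all 6 libraries, and of the 70 outside them 45.7%. DMSO 1 alone called 10 of the 110 (9.1%), against 12.4% of all regions.

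**Figure D4:**
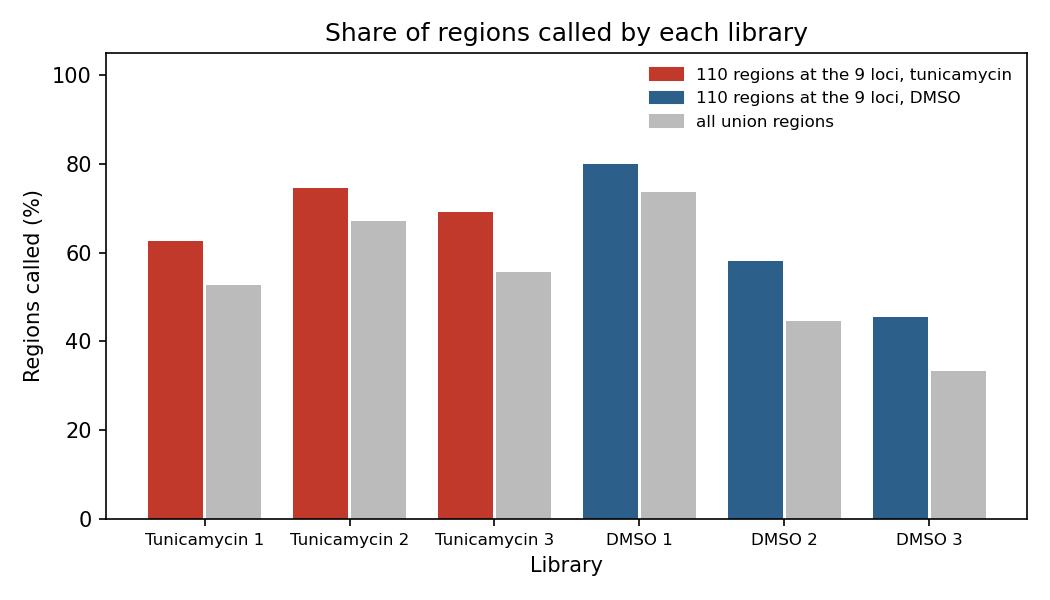
Percent of the 110 regions at the 9 loci (coloured bars) and of all union regions (grey bars) that each library called. The coloured bar exceeds the grey one in each library, by 6.4 points in DMSO 1 to 13.6 points in DMSO 2, and the range within the DMSO group, 45.5 to 80.0%, takes in all 3 tunicamycin libraries.

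Loci differed widely in how many open regions surrounded them. Chd4 had 22 regions in its window, Arid1a 16, Hdac1 15, Smarca4 14, Hdac3 13, Smarca2 12, Ep300 and Crebbp 8 each, and Hdac2 only 2. The median over all protein-coding genes was 8. For 62 of the 110 the nearest gene was not the member. The member itself was nearest to 1 of 15 regions at Hdac1 and to 0 of 13 at Hdac3. The Hdac3 start region, which overlaps both Hdac3 and Rell2, was counted to Rell2. Strong neighbouring regions included one in L3mbtl2 beside Ep300, at 98.9, 97.2 and 96.7 after tunicamycin and 98.3, 97.1 and 95.6 after DMSO, and one in Diaph1 beside Hdac3, at 96.8, 98.7 and 98.5 after tunicamycin and 94.9, 99.4 and 90.3 after DMSO. By contrast, all 12 regions of the Smarca2 window and both regions of the Hdac2 window were nearest to the member. Regions called in all 6 libraries were wider, with a median of 953.5 bp at the 10 member starts and 753.5 bp at the other 38, than the 27 called in 1 library, with a median of 225 bp. Over all regions the medians were 775 and 242 bp. A region's width is the extent of all its merged peaks, so added calls can only widen it.

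A wider list of the same machinery, 92 genes without the members, was described in the same way. Of these genes, 85 had a region called in all 6 libraries inside them or within 1 kb, against 54.4% of all protein-coding genes. The exceptions were Phf10 and Bcl7a among 19 BAF and PBAF subunits, Mta1 among 12 NuRD subunits, Smarca1 among 18 other remodellers and partners, Hdac8 and Hdac9 among 12 other deacetylases, and Brd1 among 4 acetyl-lysine readers. All 14 other acetyltransferases and all 13 corepressor partners had one. A region called in 3 tunicamycin and 0 DMSO libraries lay inside or within 50 kb of 9 of the 92 genes, against 4.88% of all genes. They were the BAF subunits Smarcc2, Smarcd3, Ss18 and Bcl7a, the NuRD ATPase Chd3, the remodellers Chd7 and Ep400, and the deacetylases Hdac4 and Hdac10. Those of Smarcd3, Ss18, Bcl7a, Chd7, Ep400 and Hdac4 lay inside the gene, and those of Smarcc2, Chd3 and Hdac10 were 19.9, 20.9 and 48.9 kb outside it. The lowest of a region's 3 tunicamycin percentiles ran from 0.5 at Hdac10 to 57.6 at Ep400. Windows of the 92 genes held a median of 11 regions, against 8 over all protein-coding genes, and the part of this in the count was not tested. Ep400 held 2, and 1 of them (chromosome 5, 110703860 to 110704585, percentiles 57.6, 63.0 and 57.9) was the only such region of the list called in 3 tunicamycin and 0 DMSO libraries also in lists of equal length. The opposite pattern was found at 1 gene, Rbbp4, a histone-binding subunit of NuRD, 15.3 kb outside it (chromosome 4, 129350692 to 129350996), with percentiles of 67.3, 55.5 and 61.1 in DMSO 1, 2 and 3.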

How the data were processed

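ATAC-seq peak lists of 6 libraries were used, 3 per group as the labels' treatment field gives them. Per the submitters' processing notes, Trim Galore 0.4.4, Bowtie2 2.2.9, Picard, MACS2, featureCounts and build mm10 were used, but their roles and settings, and any shift of read ends for the transposase, are unstated in the sources used here. Each deposited list holds the authors' fold enrichment over background (a ratio), −log10 of the q-value and summit of every peak. Peaks had been called per library.

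Merging, at 1 bp of overlap, used chromosomes 1 to 19, X and Y. A library called a region if a peak of its own lay in it, and the highest peak stood for the region. Percentiles are the percent of the library's peaks at or below a value. Gene spans came from a RefSeq table and starts from promoter windows, both of GRCm38.p6, and exons and introns were not distinguished. A start region overlaps a promoter window or the 5′ end of the span.

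The members and gene lists were chosen with earlier results of these data known, and no test was run. Named were all members, and genes of the wider list with a group-separated region or no region called in all 6 libraries. Neighbouring genes and internal regions were picked as examples after their values were seen. Of the HSC marker list, 1 gene is not reported here. Merging and calling were tested on synthetic lists. The alternatives tried were a q-value limit of 1e-05, lists cut to 28501 peaks, 50% cover of a region, windows of 0 and 100 kb, regions nearest to a member, percentiles of −log10 q, and each library left out. Python 3.11.15, NumPy 2.4.6, pandas 2.3.3 and matplotlib 3.10.9 were used.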

Additional observations from a re-analysis of the deposited data

How the results depend on the processing

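The 9 genes with a region called in all 6 libraries inside or within 1 kb numbered 9 with the q-value limit, in lists of equal length and with the gene span only. With 50% cover they numbered 8, where Hdac3 was lost. With regions nearest to a member no count is given, since the only region inside Hdac3 was nearest to Rell2. Leaving 1 library out asks for fewer calls, and a window of 100 kb adds no region at this distance, so neither is a check of the count. The 48 member regions called in all 6 libraries became 28 with 50% cover, 16 with the gene span only, 83 with 100 kb to each side and 17 with regions nearest to the member, where the last 3 change which regions are counted. The 2 regions called in 3 tunicamycin and 0 DMSO libraries became 1 with peaks of a q-value of at most 1e-05 and 0 in lists of equal length, and ran from 2 to 6 with 1 library left out, 6 being without DMSO 1. With 50% cover there were again 2, at Smarca4 and 17032 bp outside Ep300 in place of Chd4. The 0 regions of the opposite pattern became 0 to 1 with 1 library left out (1 without tunicamycin 2 or DMSO 3). The excess of member over all regions differed between the groups by −0.45 points, and by 3.38 with 50% cover, 5.31 with the gene span only and 4.48 with regions nearest to the member, a change of sign whose cause was not tested. With 1 library left out this difference ran from −2.62 (without DMSO 1) to 1.03 (without tunicamycin 2). The median difference in percentile over 10 start regions was 2.24 points, and was 0.44 in lists of equal length, 2.88 with percentiles of −log10 q, 2.24 with the median peak of a region and −0.87 to 4.03 with 1 library left out, so its sign was not stable. It was not computed under the other alternatives. The results are descriptions that come from no test. No paired comparison was made, since the labels do not say whether replicate numbers pair the libraries. Peak lists give no depth, and a list of 28501 peaks can miss weak regions.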
